A study of Mus musculus with 45 samples.

Results

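Liver and kidney of male C57BL/6 mice on the Control diet were compared over 22080 genes. The series holds 45 Affymetrix Mouse Gene ST v1.0 microarrays, of which 6 were compared, 3 of liver and 3 of kidney. The arrays were chosen by their tissue and diet labels alone, and no measured value entered the choice. Both groups ate the Control diet, which the methods name as the AIN-93 formula, and neither received cholesterol, Ganoderma lucidum extract or simvastatin. The labels give an age of 7 weeks, 8 mice in a diet group and killing on day 43. Each array holds pooled RNA, and by the methods pool A is 4 mice, pool B the other 4, and pool C was mixed from both. Only 2 of the 3 arrays in each tissue are therefore separate, and p-values measure the spread between pools, not between animals. The other arrays cover brain and the 4 cholesterol diets: HCD with 0.5% cholesterol, HCD+Gl-1 and HCD+Gl-2 with 1% of an extract, and HCD+Sim with 0.03 g of simvastatin per 100 g. They entered the common estimate of the spread, and those of liver and kidney a repeat of the comparison on other diets and a test of its change with HCD.

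The liver makes most proteins of the blood plasma, forms bile, exports lipoproteins, turns ammonia into urea and oxidises drugs and steroids. The kidney filters plasma in the glomeruli and then recovers salts, glucose, amino acids and small proteins along a row of tubule segments, each with its own transporters. Some transcription factors of the HNF4 family act in both organs, and both can release glucose during fasting.

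A gene was called different at an absolute log2 difference over 0.7 and a Benjamini-Hochberg adjusted p of at most 0.05 in limma's moderated test. Values below are deposited log2 signals, and a difference is always liver minus kidney. Of 22080 genes, 3716 (16.8%) were called, 1496 (6.78%) higher in liver and 2220 (10.1%) higher in kidney. The kidney side holds more genes, while the side with very large differences was more even: 301 genes (1.36%) were over 3 log2 units higher in liver and 269 (1.22%) over 3 higher in kidney. The 3 arrays of each tissue did not overlap for 3710 of the 3716 called genes, against 56.4% of all genes, and the median difference over all genes was 0.06. When each array was centred on 25 housekeeping genes instead, the share of calls on the liver side moved from 40.3% to 68.2%. These genes were not equal between the tissues themselves. On the deposited scale 1 was called higher in liver and 3 higher in kidney, and by adjusted p alone 4 passed toward liver and 12 toward kidney. Among all 22080 genes, 5323 passed by adjusted p alone toward liver and 5356 toward kidney. The balance between the sides therefore depends on the scaling, and all differences here are relative to the deposited scale.

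Arrays of 1 tissue correlated at 0.9928 to 0.9967 and arrays of different tissues at 0.8508 to 0.8562. The array medians lay between 6.80 and 6.87. The files hold no detection calls, so the 95th percentile of 1311 olfactory and vomeronasal receptor genes, 6.16, served as a dim level. For 330 of the 570 genes with differences over 3, the lower tissue lay at or under it, and their differences are limited by the array's background. In bulk tissue, fewer cells of a type and less RNA per cell cannot be told apart. All 10 hepatocyte markers were called higher in liver and all 10 nephron markers higher in kidney. These markers were chosen with earlier results of these data known, so their match with the labels is not an independent check. The mean of the nephron list was 11.50 to 11.54 over the kidney arrays and 6.20 to 6.27 over the liver arrays.

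The largest differences on the liver side belonged to secreted proteins and enzymes of xenobiotic, purine and tryptophan metabolism. Mup20, a major urinary protein that carries pheromones, read 13.32, 13.26 and 13.38 in liver pools A, B and C and 3.93, 3.72 and 3.55 in kidney, a difference of 9.59 ± 0.29 (SE; adjusted p = 8.56e-28, limma). Hamp, the iron hormone hepcidin, read 13.52, 13.50 and 13.19 in liver and 4.78, 4.94 and 4.64 in kidney, a difference of 8.62. The 2 sets of arrays lay far apart for both genes. Mup2 (8.94), Mup10 (8.91) and Mup3 (8.55) stood beside them, although the Mup genes are nearly identical copies and their probe sets can share signal. The 15 genes with the largest differences also held the carboxylesterase Ces1c (8.35), the P450 enzymes Cyp2c29 (8.18) and Cyp3a11 (7.89), the fatty acid binding protein Fabp1 (8.13), tryptophan dioxygenase Tdo2 (8.01), urate oxidase Uox (7.96), fetuin Ahsg (7.91), the anion carrier Slco1b2 (7.73), 2810007J24Rik (8.24) and Mug-ps1 (7.76).

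On the kidney side the largest differences belonged to the proximal tubule and the thick ascending limb. Kap, the androgen-regulated kidney protein, read 13.49, 13.39 and 13.53 in kidney and 5.30, 5.16 and 5.07 in liver, a difference of -8.29 ± 0.11 (SE; adjusted p = 1.61e-39, limma). The brush border protease Mep1a (-7.73), collectrin Tmem27 (-7.52), which helps amino acid transporters reach the membrane, and the inositol oxygenase Miox (-7.06) came next. Among the 15 were 6 solute carriers: the amino acid carrier Slc7a13 (-7.02), the sulfate carrier Slc13a1 (-7.01), the phosphate carrier Slc34a1 (-6.99), the lactate carrier Slc5a12 (-6.67), the loop diuretic target Slc12a1 (-6.59) and Slc22a19 (-6.45). Uromodulin, Umod (-6.80), the receptor cubilin, Cubn (-6.67), Acsm2 (-6.96), Cyp2j11 (-6.46) and D630029K05Rik (-6.92) completed them.

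**Figure D1:**
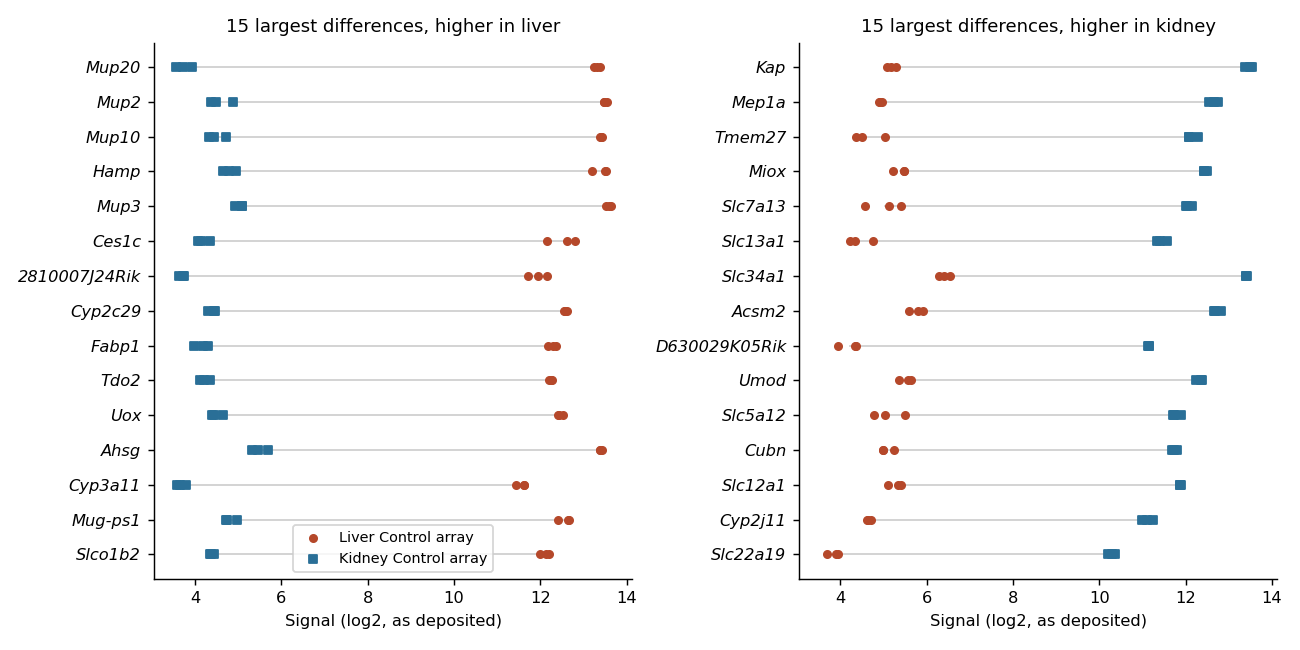
Deposited log2 signal (x axis) of the 15 genes with the largest differences on each side, 1 point per array. Circles are the 3 Liver Control arrays, squares the 3 Kidney Control arrays, and the grey line joins the tissue means; Mup20 differs by 9.59 and Kap by -8.29; genes with overlapping tissues were not eligible.

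Plasma protein genes lay on the liver side. All 28 plasma protein genes were called higher in liver, with a median difference of 5.60. Alb, the main carrier protein of plasma, read 13.72, 13.71 and 13.77 in liver and 7.69, 7.78 and 7.93 in kidney, a difference of 5.93 ± 0.20 (SE). Ttr, the thyroxine carrier, had the smallest difference of the list (2.09), with 11.21, 11.24 and 11.49 in kidney, where its signal was well over the dim level. All 19 genes of coagulation and fibrinolysis (median 4.58) and all 19 of complement (median 5.03) were also called higher in liver. Fgb, the fibrinogen beta chain, differed by 7.59, and F9, clotting factor IX, by 6.50. Some members kept a high signal in kidney: the antiplasmin gene Serpinf2 had a mean of 12.03 in liver and 11.04 in kidney, and the complement activator Cfb differed by 1.12.

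Of 21 apolipoprotein and lipoprotein assembly genes, 20 were called higher in liver (median 3.73). Apoc1 (6.65), Apoa1 (6.50) and Apoa2 (6.02), carried on high-density lipoproteins, had the largest differences. Apob, the scaffold of very-low-density lipoprotein, differed by 2.61 and the lipid loading protein Mttp by 3.19. Apoe, which directs remnant particles to their receptors, differed by 3.44.

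Bile acid synthesis lay on the liver side and a small set of bile acid carriers on the kidney side. Of 23 genes, 17 were called higher in liver and 3 higher in kidney, against 6.78% and 10.1% of all genes. Cyp7a1, the first enzyme of the classic route, read 9.29, 9.47 and 8.88 in liver and 3.93, 4.26 and 3.86 in kidney, a difference of 5.20 ± 0.17 (SE). The canalicular bile salt pump Abcb11 (6.43), the phospholipid exporter Abcb4 (4.86) and the uptake carrier Slc10a1 (6.90) stood with it. The 3 genes called higher in kidney form the route that takes up and passes on bile acids in ileum and tubule: the apical carrier Slc10a2 (-1.68) and the basolateral pair Slc51a (-2.998) and Slc51b (-2.76). Cyp7b1, which hydroxylates oxysterols, read 10.26, 10.28 and 10.23 in kidney and was called with a difference of 1.07.

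Urea cycle genes separated by step. Of 13 genes, 9 were called higher in liver and 2 higher in kidney, against 6.78% and 10.1% of all genes. The mitochondrial entry enzymes Cps1 (7.17) and Otc (7.55) and the final enzyme Arg1 (5.65) were far higher in liver. Ass1, which makes argininosuccinate, read 13.08, 13.10 and 13.04 in liver and 13.19, 13.13 and 13.17 in kidney, a difference of -0.09 with a 95% interval of -0.22 to 0.04, and Asl differed by 0.85. Gls2, a glutaminase, which releases ammonia from glutamine, differed by 5.38.

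Most called genes of amino acid breakdown lay on the liver side. Of 25 genes for aromatic amino acids, histidine, serine and related steps, 13 were called higher in liver and 3 higher in kidney. Over all genes these shares were 6.78% and 10.1%, so the kidney count is near that of all genes. Tdo2 (8.01) and the tyrosine aminotransferase Tat (7.35) had the largest differences, and Hal, which deaminates histidine, differed by 5.88. The D-amino acid oxidase Dao (-6.35) and the hydroxyacid oxidase Hao2 (-5.50), both peroxisomal, were called higher in kidney. Of 14 genes from tryptophan to NAD, 8 were called higher in liver and 3 in kidney, the last being Acmsd (-1.51), which diverts the pathway from NAD, Nampt (-1.22) and Aadat (-0.92).

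Among methyl group and creatine genes, single members lay on opposite sides. Of 24 genes for methionine, choline and glycine, 12 were called higher in liver and 3 higher in kidney. The kidney count is near the share of all genes, 10.1%, while 6.78% of all genes were called higher in liver. Mat1a, the adult liver enzyme that makes S-adenosylmethionine, differed by 7.07, and Mat2a, the form of other tissues, by -1.73. Creatine is made in 2 steps. The gene of the first, Gatm, read 7.84, 7.99 and 8.02 in liver and 12.07, 12.10 and 12.10 in kidney (difference -4.14), whereas that of the second, Gamt, read 10.79, 10.84 and 10.89 in liver and 8.39, 8.55 and 8.32 in kidney (2.42). Neither gene's arrays overlapped.

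The enzymes of glucose release differed by less than the 0.7 threshold. Of 16 gluconeogenesis and glycogen genes, 6 were called higher in liver, 2 higher in kidney and 8 were not called, and none of the 6 gluconeogenic enzymes and carriers was among the called genes. Pck1, phosphoenolpyruvate carboxykinase, read 12.31, 12.49 and 12.17 in liver and 12.54, 12.61 and 12.57 in kidney, with a 95% interval of the difference of -0.48 to -0.03 and no overlap between the tissues. Fbp1, fructose bisphosphatase, differed by 0.00 (-0.19 to 0.18) and G6pc, glucose-6-phosphatase, by 0.24 (-0.05 to 0.52). The intervals of Pcx (-0.42 to -0.04) and Pck2 (-0.63 to -0.25) stayed within the 0.7 threshold, and that of the glucose-6-phosphate carrier Slc37a4 (-0.73 to -0.38) reached it. These 3 genes passed the adjusted p alone, higher in kidney. Per the methods the mice had gone without food before killing, a condition that both tissues share.

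Glycogen storage and glucose sensing did separate them. The liver forms of glycogen synthase (Gys2, 2.86) and phosphorylase (Pygl, 3.86) and the glycogen targeting subunit Ppp1r3c (3.10) were called higher in liver, and the muscle and brain forms Gys1 (-1.73) and Pygb (-0.90) higher in kidney. Of 24 glycolysis genes, 4 were called in each direction. Gckr (4.86), a regulatory protein of hexose phosphorylation, Pfkfb1 (3.52) and the pyruvate kinase Pklr (2.299) were among the liver side. Pfkp (-1.92), Aldoa (-1.70), Pkm (-1.07) and Ldhb (-4.05) were on the kidney side.

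Ketone bodies are made in liver and burnt elsewhere, and the 10 genes of this list followed that division in part: 2 were called higher in liver and 5 higher in kidney. Bdh1, which interconverts both ketone bodies, was called higher in liver at 0.79. Oxct1, which activates acetoacetate for oxidation, read 6.19, 6.34 and 6.12 in liver and 11.55, 11.58 and 11.75 in kidney, a difference of -5.41. Of 26 fatty acid oxidation genes, 9 were called higher in liver and 5 in kidney, with the acyl-CoA synthetase Acsl1 at 1.59 and the dehydrogenase Acadm at -1.10.

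Of 21 fatty acid synthesis genes, 13 were called higher in liver and 3 in kidney, against 6.78% and 10.1% of all genes. Elovl3, an elongase of very long fatty acids, differed by 7.18 and Elovl7, of the same family, by -4.27. The desaturases Scd1 (2.64) and Scd2 (-2.29) also lay on opposite sides. Cholesterol synthesis was less uniform, with 11 of 23 genes called higher in liver and 4 higher in kidney. Hmgcs1 (-1.83), Cyp51 (-1.49), Sqle (-1.28) and Mvd (-0.92) made up the kidney side, and Sc5d (2.13) and Tm7sf2 (2.18) were among the liver side. Liver pools differed among themselves in this pathway: the mean of the 23 genes ranged from 8.93 to 9.36 over the liver arrays and from 8.63 to 8.67 over the kidney arrays. Without liver pool B, Idi1 and Nsdhl were called higher in kidney and Msmo1 lost its call, and without liver pool C Hsd17b7 was called higher in liver.

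Citric acid cycle genes were called higher in kidney or not called. Of 20 genes, 8 were called higher in kidney, 12 were not called, and 19 lay below 0, with a median of -0.61. Idh2, the mitochondrial isocitrate dehydrogenase, differed by -1.76 and Pdha1, a subunit of pyruvate dehydrogenase, by -1.43. Of 93 respiratory chain genes, 4 were called (Cox7a1 -1.17, Ndufb4 -1.08, Ndufs1 -0.89 and Uqcrc2 -0.72), all higher in kidney. That is a smaller share than the 10.1% of all genes called higher in kidney. Of the 93 genes, 82 had a difference below 0 and 65 passed the adjusted p alone in the direction of kidney. Their median was -0.39. The 82 ribosomal protein genes had a median of 0.14 and none was called. By adjusted p alone, 25 of these 82 passed in the direction of liver and 3 in that of kidney. The same count over all 22080 genes was 5323 in the direction of liver and 5356 in that of kidney. With the housekeeping scaling, 2 respiratory chain genes were called higher in liver and 2 higher in kidney.

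**Figure D2:**
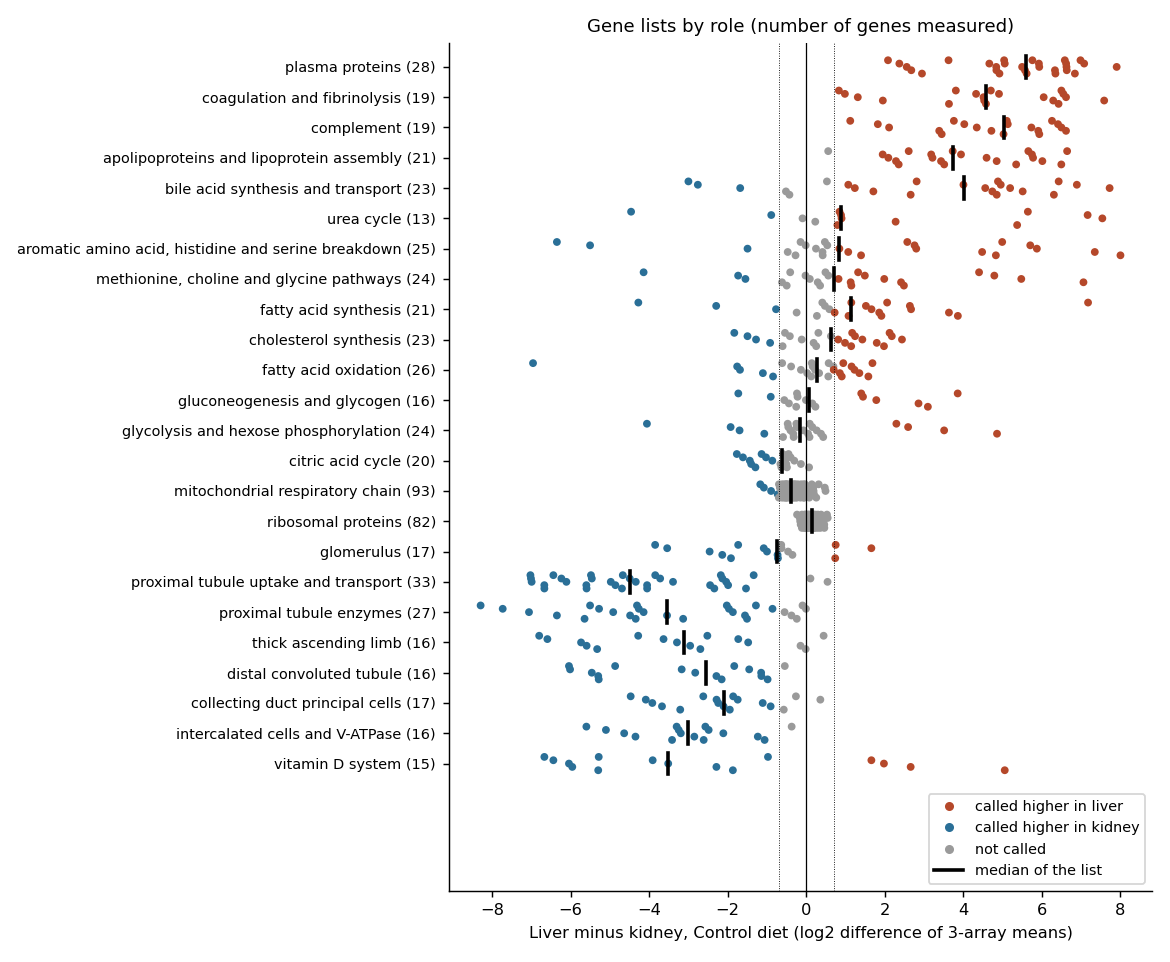
Liver minus kidney difference on the Control diet (x axis, log2) for every measured gene of 24 lists (y axis, number of genes in brackets); colour gives the call, black bars the list medians and dotted lines the 0.7 threshold. Plasma proteins (median 5.60) and proximal tubule transport (median -4.49) lie at the ends, and gluconeogenesis, glycolysis and the mitochondrial lists lie near 0.

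Along the nephron, the proximal tubule had the largest differences. Of 33 genes for uptake and transport there, 31 were called higher in kidney, with a median of -4.49. Megalin, Lrp2, which takes up filtered proteins together with cubilin, read 12.47, 12.56 and 12.53 in kidney and 6.12, 6.11 and 6.01 in liver, a difference of -6.44. Slc34a1 read 13.40, 13.42 and 13.39 in kidney and 6.53, 6.29 and 6.41 in liver. The glucose carrier of the early tubule, Slc5a2, differed by -4.49 and that of the late tubule, Slc5a1, by -2.17. The organic cation carrier Slc22a2 (-6.23) and the anion carriers Slc22a8 (-6.11) and Slc22a6 (-5.59) were called, and the 2 uncalled genes were the glucose exit carrier Slc2a2 (0.55) and the anion exchanger Slc26a1 (0.11), which also serve hepatocytes. Of 27 proximal tubule enzymes, 22 were called higher in kidney. The other 5 included Fbp1, Ass1 and the peptidases Anpep (-0.37) and Enpep (-0.55).

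The later segments followed with smaller medians. In the thick ascending limb 13 of 16 genes were called (median -3.12), with Umod, Slc12a1 and the epidermal growth factor gene Egf (-5.73) in front. In the distal convoluted tubule 15 of 16 were called (median -2.55): the thiazide target Slc12a3 read 12.78, 12.76 and 12.67 in kidney and 6.63, 6.63 and 6.91 in liver, and the calcium buffer Calb1 differed by -6.04. Of 17 principal cell genes 14 were called (median -2.10), with the cortisol-inactivating enzyme Hsd11b2 at -4.47 and the vasopressin-regulated water channel Aqp2 at -1.74. Of 16 genes of intercalated cells, which secrete acid or base, 15 were called (median -3.02), including carbonic anhydrase Car2 (-5.10) and the proton pump subunit Atp6v0a4 (-4.63). No gene of these 4 lists was called higher in liver. The medians of different lists rest on different probe sets, and no order between segments was tested.

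Glomerular genes were mixed. Of 17 genes 10 were called higher in kidney and 3 higher in liver. Npnt, a matrix protein of the filter, differed by -3.54, Podxl, which coats podocytes, by -2.46 and the collagen gene Col4a4 by -2.14. Plce1 (0.75) and Ehd3 (0.74) were among those called higher in liver. Nphs1 (-0.72) and Wt1 (-0.73) lay close to the threshold and lost their calls in some fits without 1 array, as did Ehd3.

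Hormone systems that use both organs showed the division of labour gene by gene. In the vitamin D list all 15 genes were called, 4 higher in liver and 11 higher in kidney. The plasma carrier Gc (5.06) and the 25-hydroxylases Cyp2r1 (1.98) and Cyp27a1 (2.66) were higher in liver. The activating enzyme Cyp27b1 (-1.87), the inactivating enzyme Cyp24a1 (-3.91) and the receptor Vdr were higher in kidney, Vdr with 11.53, 11.54 and 11.41 in kidney and 5.56, 5.39 and 5.65 in liver. In the renin-angiotensin list the substrate Agt was called higher in liver (2.56), and renin, Ren1 (-3.47), and the converting enzyme Ace (-4.48) higher in kidney. The receptor Agtr1a was called higher in liver at 0.87. Epo, the erythropoietin gene, read 4.99, 4.94 and 5.43 in liver and 5.05, 5.11 and 4.78 in kidney, all under the dim level.

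Most large families had members called in both directions, in unequal numbers. Over all genes, 6.78% were called higher in liver and 10.1% higher in kidney. Of 380 solute carriers 46 were called higher in liver and 132 higher in kidney. Of 90 cytochrome P450 genes 42 were called higher in liver and 10 higher in kidney, the latter led by Cyp2j11 (-6.46), Cyp2j13 (-5.96) and Cyp4b1 (-4.91). Of 12 UDP glucuronosyltransferases 6 were higher in liver, Ugt2b1 (7.63) in front, and 4 higher in kidney, Ugt2b37 (-3.59) in front. Of 19 glutathione transferases 11 were higher in liver, with Mgst1 (4.13) and Gstm6 (4.13), and 3 higher in kidney, with Gstm5 (-2.39). Close relatives in these families can share probe signal, so single members and the counts made from them are uncertain. Of 23 claudins, which seal or open the space between cells, Cldn1 (2.15) and Cldn3 (1.71) were called higher in liver and 6 higher in kidney, including Cldn10 (-4.28) and Cldn8 (-3.63). Of 22 V-ATPase subunits 15 were called higher in kidney and none in liver, or 9 higher in kidney with the housekeeping scaling.

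Genes with similar roles were also set side by side. Among 26 pairs of enzymes, carriers or factors, 11 had 1 member called in each direction, 9 had 1 member called, 2 had both called on the same side and 4 had none called. Hao1 (5.71) and Hao2 (-5.50), which oxidise hydroxyacids, lay on opposite sides, as did Mat1a and Mat2a. Fabp1 (8.13) and Fabp3 (-2.86), Car3 (3.37) and Car2 (-5.10), and Slc7a2 (4.71) and Slc7a7 (-3.39) were other pairs with opposite calls. The 4 uncalled pairs were Pck1 with Pck2, Anpep with Enpep, Pfkl with Pfkm, and the metallothioneins Mt1 with Mt2. The pairs were picked for similar roles, and not all are isoforms or members of 1 family. Earlier results of these data were known when they were picked, and their count describes this choice.

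**Figure D3:**
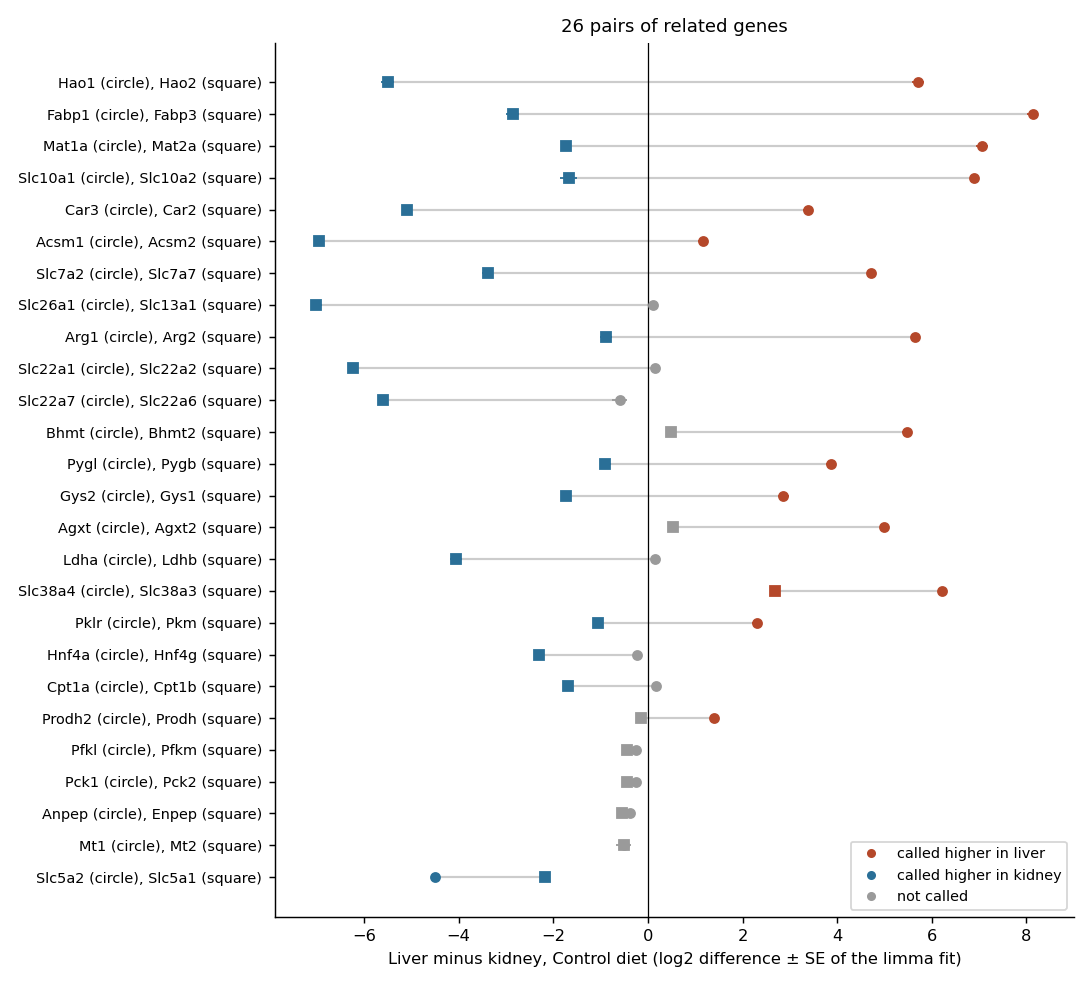
Liver minus kidney difference (x axis, log2, with the SE of the limma fit) for the 26 pairs (y axis, circle for the gene named at left and square for its partner), ordered by the gap within the pair. Colours give the call, and 11 pairs have a red and a blue member.

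Transcription factors of the liver list fell into tissue-restricted and shared members. Of 25, 18 were called higher in liver and none in kidney. Nr1i3, the constitutive androstane receptor, had the largest difference (4.58), followed by Nr5a2 (4.07), Creb3l3 (3.95), Onecut1 (3.85) and Onecut2 (3.84). Cebpa differed by 2.73 and Foxa1, Foxa2 and Foxa3 by 2.60, 1.46 and 2.74. Hnf4a read 11.57, 11.50 and 11.72 in liver and 11.78, 11.81 and 11.88 in kidney, and its interval was -0.40 to -0.04. The bile acid receptor Nr1h4 (0.11, interval -0.11 to 0.33) was also within the threshold. Hnf4g, a relative of Hnf4a, was called higher in kidney at -2.30. Of 38 kidney factors 26 were called higher in kidney and none in liver, with Pax8 (-3.95), Tfcp2l1 (-3.67), Tfap2b (-3.66), Sim1 (-3.13) and Emx2 (-3.12) in front.

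Promoters were searched for short runs of letters that factors of liver and kidney are known to bind, among them GTTAAT. To show where these letters lie, the promoters of 5 genes whose differences span the range are shown, 2 far higher in liver (Alb and Fgb), 2 far higher in kidney (Umod and Miox) and G6pc, which was not called. Each is the 250 bases before the gene's start in RefSeq (GRCm38.p6), 5′ to 3′ on the gene's strand, with GTTAAT, or ATTAAC on the other strand, in capitals. They were chosen after their values and matches were seen.
Alb, chr5:90460620-90460869 (+ strand): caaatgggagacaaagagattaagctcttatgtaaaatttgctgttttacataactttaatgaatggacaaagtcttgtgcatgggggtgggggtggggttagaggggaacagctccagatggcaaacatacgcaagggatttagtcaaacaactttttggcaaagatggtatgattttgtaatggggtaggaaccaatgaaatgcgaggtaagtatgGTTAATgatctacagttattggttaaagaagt
Fgb, chr3:83049864-83050113 (- strand): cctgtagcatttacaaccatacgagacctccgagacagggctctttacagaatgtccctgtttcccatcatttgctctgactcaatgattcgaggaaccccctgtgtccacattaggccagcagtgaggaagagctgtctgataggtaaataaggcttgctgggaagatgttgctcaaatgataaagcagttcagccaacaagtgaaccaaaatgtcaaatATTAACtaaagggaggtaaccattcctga
Umod, chr7:119479263-119479512 (- strand): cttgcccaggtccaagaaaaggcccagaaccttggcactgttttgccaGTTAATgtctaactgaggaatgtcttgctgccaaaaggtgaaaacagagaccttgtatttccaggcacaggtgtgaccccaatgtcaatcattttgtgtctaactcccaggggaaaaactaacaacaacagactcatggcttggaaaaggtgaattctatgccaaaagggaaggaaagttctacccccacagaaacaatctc
Miox, chr15:89334223-89334472 (+ strand): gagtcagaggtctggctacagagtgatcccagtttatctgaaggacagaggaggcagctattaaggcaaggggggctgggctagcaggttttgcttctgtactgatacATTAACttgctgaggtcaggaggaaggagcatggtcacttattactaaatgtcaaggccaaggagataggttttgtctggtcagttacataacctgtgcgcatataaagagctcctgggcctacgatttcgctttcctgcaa
G6pc, chr11:101367466-101367715 (+ strand): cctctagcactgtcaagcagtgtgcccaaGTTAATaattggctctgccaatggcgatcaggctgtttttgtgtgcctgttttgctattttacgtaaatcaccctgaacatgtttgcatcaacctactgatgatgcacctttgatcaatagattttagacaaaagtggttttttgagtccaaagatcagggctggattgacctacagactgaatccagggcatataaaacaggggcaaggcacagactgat

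The match begins 32 bases before the start of Alb, 29 before that of Fgb, 202 before that of Umod, 142 before that of Miox and 221 before that of G6pc. Shares of promoters with given letters were counted on either strand in windows of 300 bases, 250 before to 50 after the start, chromosome 18 left out. GTTAAT was found in 14.4% of 278 promoters of the genes over 3 higher in liver, 15.9% of 245 promoters of those over 3 higher in kidney and 6.10% of 19102 promoters of all measured genes. The C/EBP letters TTGCNNAA were in 23.4%, 10.2% and 9.85% of the same sets, the ONECUT letters ATTGATT in 9.35%, 2.04% and 1.98%, and the FOXA letters TGTTTAC in 8.27%, 4.08% and 3.03%. The GC box GGGCGG was in 20.1%, 40.8% and 48.7%. No letters of 1 motif contain those of another, the promoters include 220 of 301 liver genes and 198 of 269 kidney genes, and several starts of 1 gene count separately. A match is a run of letters, and binding of any factor was not measured.

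Hox genes, which record position along the body axis, were called higher in kidney or in neither tissue. Of 39 measured, 22 were called higher in kidney and none higher in liver. Hoxd8 read 8.42 to 8.66 in kidney and 4.96 to 5.25 in liver, a difference of -3.42, and Hoxc10 (-2.58) and Hoxc6 (-2.31) followed. The called genes run from paralogue group 2 to group 10, and no gene of groups 1, 11, 12 or 13 was called. In 12 of the 39 genes both tissues lay under the dim level, which includes most genes of groups 11 to 13. Hoxc4 (-0.76) lost its call without kidney pool C.

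**Figure D4:**
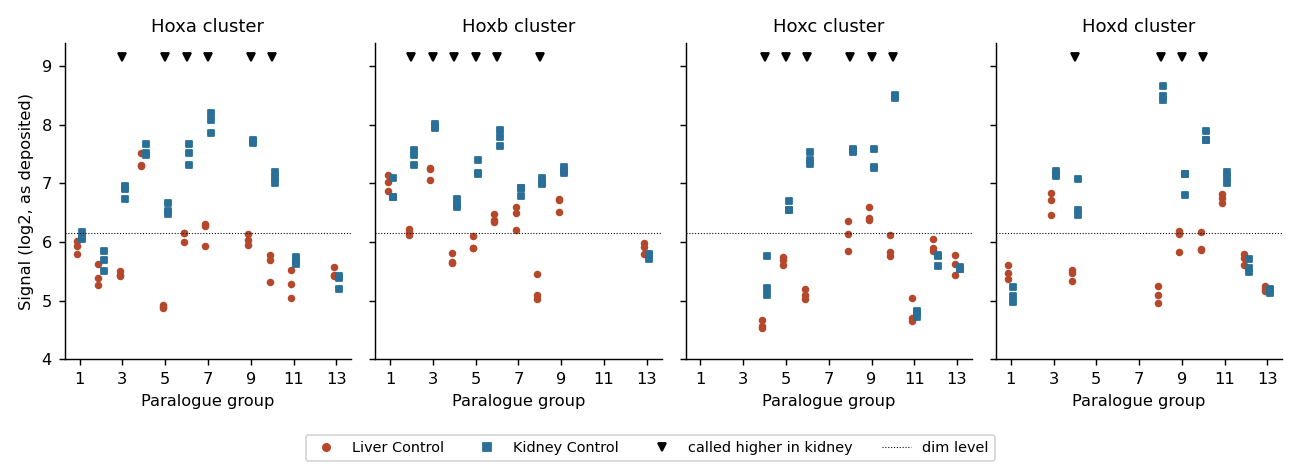
Deposited log2 signal (y axis) of Hox genes by paralogue group (x axis) in the 4 clusters; circles are the 3 Liver Control arrays, squares the 3 Kidney Control arrays, triangles mark genes called higher in kidney and the dotted line is the dim level of 6.16. Hoxd8 shows the widest gap, and the 22 called genes lie in groups 2 to 10.

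Of 316 microRNA genes on the array, 5 were called higher in liver and 7 higher in kidney, against 6.78% and 10.1% of all genes. Of those higher in kidney, 4 are shown because they form 2 seed families. They were chosen after their values were seen. The arrays measure transcript from the gene and not the mature microRNA. Mir10a lies in the Hoxb cluster and Mir10b in the Hoxd cluster. The mature sequences from RefSeq (GRCm38.p6) follow, with the seed, bases 2 to 8, in capitals.
mmu-miR-10a-5p: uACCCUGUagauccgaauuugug
mmu-miR-10b-5p: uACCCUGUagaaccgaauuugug
mmu-miR-200b-3p: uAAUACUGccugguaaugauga
mmu-miR-429-3p: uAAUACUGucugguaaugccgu

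The first pair shares the seed ACCCUGU and the second AAUACUG. Mir10a differed by -0.95 and Mir10b by -1.07, and all their arrays lay under the dim level. On the other 4 diets Mir10a differed by -0.80 to -0.24 and Mir10b by -0.92 to -0.40. Mir200b read 6.18, 6.27 and 6.40 in kidney and 4.82, 4.84 and 5.14 in liver, a difference of -1.35, and Mir429, its neighbour on chromosome 4, differed by -0.80 with all arrays under the dim level and by -0.68 to -0.43 on the other diets, within the threshold. The hepatocyte microRNA gene Mir122 read 8.39, 8.48 and 8.03 in liver and 5.66, 5.63 and 5.49 in kidney, a difference of 2.71.

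Markers of other cells also differed. All 9 Kupffer cell markers were called higher in liver, led by Vsig4 (4.70) and Cd5l (4.23), and their list mean was 8.30 to 8.46 in liver and 6.13 to 6.17 in kidney. The endothelial list divided: the sinusoidal receptors Stab2 (2.80) and Lyve1 (2.22) were called higher in liver, and Emcn (-3.25), Flt1 (-1.14), Plvap (-1.04) and Tek (-0.84) higher in kidney. The general markers Cdh5 (0.25), Kdr (0.00), Eng (-0.13) and Pecam1 (-0.65) were not called. By the adjusted p alone, Pecam1 passed as higher in kidney and Cdh5 as higher in liver. Of 10 genes of stellate cells, fibroblasts and smooth muscle, Lrat (1.71), Reln (2.53) and Dcn (2.299) were called higher in liver, Acta2 (-0.93) and Pdgfrb (-0.71) higher in kidney, and 5 were not called. Pdgfrb lost its call without liver pool A, liver pool B or kidney pool B (-0.77 to -0.65 over the 6 fits). Among 8 cholangiocyte markers 4, including Krt7 (-2.27), Epcam (-1.74) and Spp1 (-2.35), were called higher in kidney, whose tubule cells also make them.

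Genes of tissues that neither organ should hold were checked by whole lists. All 11 skeletal muscle genes lay above 0 and 4 were called higher in liver, Myh1 (1.39), Atp2a1 (1.29), Acta1 (1.12) and Tnnc2 (0.98), with a list mean of 6.89 to 7.12 in liver and 6.21 to 6.31 in kidney. With the housekeeping scaling 10 of the 11 were called. That scaling also raised the calls on the liver side over all 22080 genes from 1496 to 3024. The median difference of all genes moved from 0.06 to 0.38, so the count of 10 is not a separate sign of muscle. Of 10 squamous epithelium genes 3 were called higher in liver and Sprr1a (-1.88) higher in kidney, and the list mean ranged from 5.84 to 6.63 over the liver arrays and from 5.78 to 5.98 over the kidney arrays. Krt4 read 7.80, 8.63 and 5.82 in liver pools A, B and C and 5.27, 5.68 and 5.31 in kidney, so pools A and B carry its difference of 2.00. Krt13 and Krtdap followed the same order of pools. For these genes pool C read lower than both A and B, although the methods describe it as a mix of them. Liver pool C also lay outside pools A and B for genes of other kinds. Examples are Ces1c (12.81, 12.61 and 12.16 in pools A, B and C) and Adam11 (7.61, 7.26 and 8.15). The reason was not tested. Of 12 pancreas acinar genes 1 was called, Amy2a5 (1.31), and of 9 adrenal cortex genes 1, Cyp21a1 (0.83), both higher in liver. Over all genes, 6.78% were called higher in liver. The part of such tissue in other differences was not tested.

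The comparison was repeated in mice on the 4 cholesterol diets, on 24 other arrays. These enter the Control test through the common estimate of the spread. They can also have shaped the deposited values through normalization, batch adjustment and the choice of probe set, so the repeat is not fully independent. Of the 3716 called genes, 3313 (89.2%) were called in the same direction on HCD, 3310 (89.1%) on HCD+Gl-1, 3288 (88.5%) on HCD+Gl-2 and 3359 (90.4%) on HCD+Sim. None was called in the opposite direction on any of the 4 diets, and 2954 (79.5%) were called on all 5 diets. Alb differed by 5.93 on Control and by 5.87 to 6.00 on the other diets.

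A change of the liver-kidney difference with the cholesterol diet was called for few genes. Testing the difference on HCD less that on Control, 33 of 22080 genes (0.149%) passed, 21 with a larger value of liver minus kidney on HCD and 12 with a smaller one, and 1574 had an unadjusted p under 0.05 in limma. Cyp2b9, a steroid and drug oxidising P450, read 5.28, 5.17 and 5.62 in Liver Control and 8.71, 7.88 and 9.08 in Liver HCD, with 4.61 to 5.03 over the kidney arrays, and its liver-kidney difference rose by 2.99 ± 0.30 (SE). Srd5a2, a steroid reductase, reached its call through kidney: it read 9.27, 9.12 and 9.52 in Kidney Control and 10.03, 10.09 and 10.10 in Kidney HCD, with 7.64 to 8.01 over the liver arrays. Fabp5, a fatty acid binding protein, read 9.30, 9.38 and 9.32 in Liver Control and 7.83, 8.01 and 7.46 in Liver HCD, with 6.43 to 6.77 in kidney. Sqle, squalene epoxidase, read 6.98, 7.31 and 6.61 in Liver Control and 5.86, 6.14 and 6.14 in Liver HCD, and its kidney arrays lay between 8.10 and 8.50. The count ran from 22 to 59 when 1 of the 12 arrays was left out, the highest being without Liver Control pool C, and was 85 with pools A and B only.

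**Figure D5:**
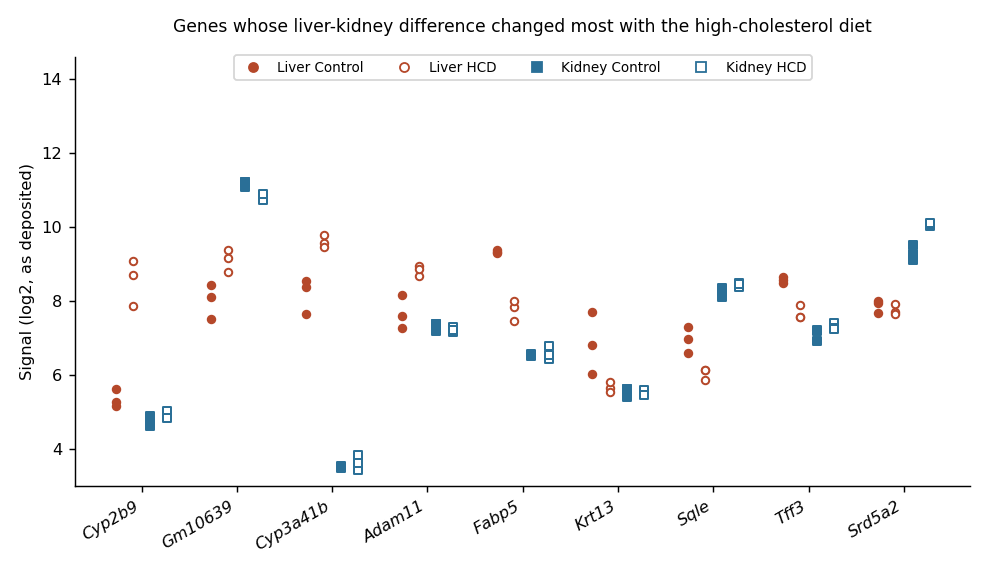
Deposited log2 signal (y axis) of 9 genes (x axis) among the largest called changes of the liver-kidney difference between HCD and Control, 1 point per array; filled symbols are Control and open ones HCD, circles liver and squares kidney. Cyp2b9 moves in liver, Srd5a2 in kidney, and Krt13 is spread over the Liver Control pools.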

How the data were processed

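Arrays were grouped by the tissue, diet and pool in their labels. The authors corrected background with RMA, quantile normalized with oligo, adjusted a batch effect with ComBat, kept for each gene the probe set that varied most (by interquartile range) and deposited log2 values; which batches were adjusted is not given in the sources used here. Quantile normalization across tissues makes all array distributions alike, so differences are relative. The arrays over which the interquartile range was taken are not given in the sources used here. If they spanned tissues, this choice can favour probe sets with larger liver-kidney differences, which was not tested. From these values, limma 3.58.1 (R 4.3.3) fitted 15 group means to all 45 arrays with empirical Bayes moderation (residual df 30, prior df 7.34) and Benjamini-Hochberg adjustment over 22080 genes; 13 genes with names turned into dates were tested and are not named. Adjusted p-values are from this fit, whose SE also pools brain arrays. An exact permutation test of 3 against 3 arrays cannot go under 0.1. The fit was tested on simulated data. Named genes are the 15 largest non-overlapping calls in each direction, the genes of the lists and pairs, the 5 largest calls per family and direction, and up to 5 per direction for the diet contrast. Members, lists, pairs and motifs were chosen with earlier results of these data known. After values were seen, Mbl2 was moved to the complement list and Gnat1 removed from the methionine list, where both had been entered in error. Symbols are the file's. Alternatives tried are other sample sets, scaling, moderation, thresholds, a replicate block and leaving out each array. Arrays carry no read depth, and their number limits the precision. Some genes that these rules name are not reported here, nor are the pairs that hold them; they stay in the counts over lists.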

Additional observations from a re-analysis of the deposited data

Results flagged for a closer look

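For 9 named genes the liver-kidney difference itself differed between HCD and Control in limma's test, with Benjamini-Hochberg adjustment over all genes. On HCD the value of liver minus kidney was higher by 2.99 for Cyp2b9 (adjusted p = 5.70e-08, limma), 1.46 for Gm10639 (5.92e-05), 1.298 for Cyp3a41b (0.00272) and 1.25 for Adam11 (0.000179). It changed by -1.61 for Fabp5 (adjusted p = 6.43e-06, limma), -1.16 for Krt13 (0.0415), -1.12 for Sqle (0.00163), -1.07 for Tff3 (0.00826) and -0.89 for Srd5a2 (0.00272). With 1 of the 12 arrays left out, the changes of Cyp2b9 (2.73 to 3.33), Gm10639, Cyp3a41b, Adam11, Fabp5 (-1.73 to -1.45), Sqle, Tff3 and Srd5a2 stayed called each time. Krt13 lost its call in 10 of the 12 fits (-1.57 to -0.73). In Liver Control, pool C lay outside pools A and B for all 9 genes except Fabp5, although it was mixed from both. Adam11, for example, read 7.61, 7.26 and 8.15 in pools A, B and C, and Sqle 6.98, 7.31 and 6.61. The reason was not tested. Krt13 read 6.80, 7.72 and 6.02 in Liver Control pools A, B and C, and the other squamous genes Krt4 and Krtdap had the same order of pools. The part of that tissue was not tested.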

How the results depend on the processing

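The 3716 called genes numbered 3592 to 3757 with the 6 Control arrays only, the 30 liver and kidney arrays, pools A and B only, a dim filter, trend and robust moderation or median centring, and with 1 array left out (3665 to 3757). By adjusted p alone there were 10679, by a log2 difference over 1 there were 2515, by treat 2603, and by housekeeping centring 4437, which moved the median of all genes from 0.06 to 0.38 and shared 2909 calls in the same direction. No named gene with a call changed direction, and no called gene was called in the opposite direction under any of these settings. Housekeeping centring ended 36 calls of named genes and made 33. Whether same-letter pools of liver and kidney hold the same mice is not given in the sources used here. Their deviations from the group means correlated at -0.01, 0.07 and -0.01, so no pairing was used, and a fit with the pool letter as a replicate block gave 3718 calls and, for the diet contrast, 36 in place of 33. For that contrast there were 39 calls with its 12 arrays, 24 with the 30 arrays, 85 with pools A and B only, 58 by adjusted p alone, and 22 to 59 with 1 array left out, 59 being without Liver Control pool C.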
